A study of Mus musculus with 16 samples.

Results

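The cytosolic ribosomal proteins are the protein parts of the 80S ribosome, called Rpl in the large subunit and Rps in the small subunit. They were described in mouse embryonic stem cells (mESCs) before and during exit from naive pluripotency. Their genes were taken from the count table by symbol: Rpl or Rps followed by a number and an optional short suffix, plus Rplp0, Rplp1, Rplp2 and Rpsa, leaving out symbols with -ps (pseudogenes) and the Rps6k kinases. The rule found 87 of the 27179 genes in the table, 54 of the large and 33 of the small subunit. All 87 passed the filter on low counts. Of these, 77 are the standard genes and 10 are paralogues or retrocopies (Rpl3l, Rpl7l1, Rpl10l, Rpl22l1, Rpl36al, Rpl39l, Rps27l, Rps4l, Rpl32l and Rpl6l), of which Rps4l and Rpl6l are pseudogenes in RefSeq. Fau and Rack1 also encode ribosomal proteins but fall outside the symbol rule.

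The ribosome holds 1 copy of nearly every ribosomal protein, so cells make these proteins in step with each other and with ribosomal RNA. Their mRNAs are known as TOP mRNAs: they begin with a C and a run of pyrimidines, through which mTORC1 and LARP1 set how strongly they are translated in response to amino acids and growth factors. Mammalian ribosomal protein genes have many processed copies in the genome, and a few of these copies became expressed genes with restricted patterns, such as Rpl10l and Rpl39l, which are best known from the testis.

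RNA was sequenced from 16 libraries in 8 groups of 2. Cells were adapted from serum/LIF to 2i/LIF, a serum-free medium with the GSK3 inhibitor CHIR99021 (3 µM), the MEK inhibitor PD0325901 (1 µM) and LIF, or to serum/LIF+2i, which holds 10% fetal bovine serum, LIF and the same inhibitors. In each medium a 0 h control was kept in maintenance medium, and exit groups were taken 12, 24 and 40 h after both inhibitors and LIF were withdrawn. The exit media were not the same: the 2i/LIF arm kept its serum-free base, while the serum arm went from serum to DMEM and Neurobasal mixed in equal parts, with N-2 and B-27 supplements. Glutamine was 2 mM in both. A difference between the arms during exit therefore cannot be told apart from the change of base medium. The labels name no cell line or clone, and nothing says that the replicates came from separate cultures, so p-values measure only the spread between these samples. The labels' protocol lists only 24 and 40 h for the serum arm, and the 12 h serum libraries were assigned by their titles.

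Libraries held 5931381 to 11142744 counts, and replicates correlated at r = 0.991 to 0.995 across genes. Ribosomal RNA genes took 0.429% to 1.72% of counts, the most in replicate 1 at 24 h from serum/LIF+2i, the group whose replicates also differed most from each other (chi-square per degree of freedom 5.84, against 1.42 to 3.33 in the other 7 groups). All 8 pluripotency markers examined (Pou5f1, Sox2, Nanog, Zfp42, Dppa5a, Utf1, Sall4 and Lin28a) were present in all groups, with summed levels, in counts per 1000000 counts (CPM), of 3921 to 4111 at 0 h and 3120 to 3144 at 40 h in 2i/LIF, and 4279 to 4497 and 3165 to 3197 in the serum arm. Within these sums the markers moved in opposite directions: from 0 to 40 h in 2i/LIF, mean Nanog went from 648 to 28.4 CPM and Zfp42 from 326 to 48.4, while Utf1 went from 19.5 to 409 and Lin28a from 74.1 to 832. Markers of neural progenitors (Pax6, Sox1, Neurog2 and Hes5) went from 0.885 to 1.01 summed CPM at 0 h to 27.1 to 32.8 at 40 h from 2i/LIF, and from 3.89 to 4.96 to between 52.7 and 57.8 from serum/LIF+2i. In 2i/LIF that rise was in Sox1 (mean 0.643 to 23.1 CPM) and Pax6 (0.232 to 6.82). Neurog2 was 0 at both times there and Hes5 went from 0.0737 to 0. Mesoderm markers (T, Mixl1, Eomes and Mesp1) went from between 29.2 and 36.4 summed CPM at 0 h to between 2.8 and 3.49 at 40 h in 2i/LIF, and from between 19.8 and 26.5 to between 4.4 and 4.84 in the serum arm. In 2i/LIF most of that fall was in T (mean 27.3 to 0.388 CPM). Eomes went from 3.86 to 2.15, Mixl1 from 1.68 to 0.533 and Mesp1 from 0 to 0.0697. Fibroblast markers went from between 3.88 and 3.98 to between 15.6 and 22.7 in 2i/LIF and from between 2.48 and 2.59 to between 11 and 12.2 in the serum arm, and endoderm markers were at or under 5.84 in all libraries. The fibroblast rise in 2i/LIF was mostly in Dcn (mean 0 to 11.4 CPM) and Thy1 (0.558 to 5.15), with Col1a1 going from 0.79 to 1.38. Col1a2 (2.09 to 1.12), Col3a1 (0.327 to 0.0697) and Lum (0.169 to 0) fell, and Postn was 0. The part of these marker changes in the results on ribosomal proteins was not tested. In bulk libraries, fewer cells expressing a gene and less RNA per cell cannot be told apart.

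Start-site windows are shown for 8 genes that the results turn on, because the TOP run lies at the first transcribed base. RefSeq promoters of the GRCm38.p6 build were found for 65 of the 87 genes, with 77 start sites. Each window runs 5′ to 3′ from 30 bases before the start to 15 bases from it, so the start is the base at position 31, and capitals mark the longest stretch of at least 5 pyrimidines (C or T) counted from a C that lies within 5 bases of the start on either side.

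Rps15a, chr7:118116133-118116177, minus strand: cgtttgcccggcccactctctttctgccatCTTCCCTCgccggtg
Rps24, chr14:24490648-24490692, plus strand: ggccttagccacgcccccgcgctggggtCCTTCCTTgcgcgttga
Rps6, chr4:86857353-86857397, minus strand: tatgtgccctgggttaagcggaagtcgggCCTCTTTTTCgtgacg
Rpl15, chr14:18270972-18271016, minus strand: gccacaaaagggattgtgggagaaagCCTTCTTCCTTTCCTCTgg
Rpl37a, chr1:72711230-72711274, plus strand: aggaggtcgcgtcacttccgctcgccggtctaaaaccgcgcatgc
Rps25, chr9:44407684-44407728, plus strand: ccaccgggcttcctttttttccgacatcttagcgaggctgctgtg
Rpl39l, chr16:10170198-10170242, plus strand: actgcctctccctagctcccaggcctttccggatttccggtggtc
Rpl10l, chr12:66284387-66284431, minus strand: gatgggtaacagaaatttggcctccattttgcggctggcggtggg

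Rps15a, Rps24, Rps6 and Rpl15 carry such a run, and Rpl37a, Rps25, Rpl39l and Rpl10l have none that begins within 5 bases of the printed start. The Rpl39l window lies inside the annotated gene, which begins at 10170197, so its result holds for that promoter start only. The gene's first base was not examined for a run. A start base C followed by at least 4 more pyrimidines was found at 14 of the 77 member starts (18.2%), against 823 of 32851 starts in all promoters (2.51%). Counting a run that begins within 5 bases of the start gave 32 member starts (41.6%) against 6027 (18.3%) of all starts. These are matches of letters on the transcribed strand at annotated starts, which may lie a few bases from the true ones.

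The amounts of these mRNAs differed widely in the table. Mean levels per kilobase of exon had a median of 124 CPM per kb, from 2186 CPM per kb for Rpl8 and 2112 for the stalk protein Rplp1 down to 7.09 for Rpl5, 7.01 for Rps27 and 1.6 for Rpl3l, the striated muscle paralogue of Rpl3. The whole range, from Rpl8 to Rpl3l, was 1370-fold, and the level of Rpl8 was 312-fold that of Rps27, although the ribosome holds both proteins. These levels were set beside how unique the genes are. The share of each coding sequence whose 50-base stretches also occur in an annotated transcript of another locus had a median of 88.3% and was 100% for 29 of the 87 genes. With 100-base stretches the median was 68.8% and 24 genes were at 100%. The read length is not given in the sources used here. Untranslated parts of protein-coding genes were left out, so fully shared below refers to coding 50-base stretches only. Copies without an annotated transcript were not searched, so the true shares may be higher. The 18 genes with under 50% shared sequence had a median level of 670 CPM per kb, the 34 genes with 50% to under 95% had 222, and the 35 genes with 95% or more had 43.7. How reads that match several places were counted is not given in the sources used here, so the levels of highly shared genes are uncertain and a fold change in them may include reads of their copies. This limit holds for every gene named below with shared sequence, also where it is not repeated.

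**Figure D1:**
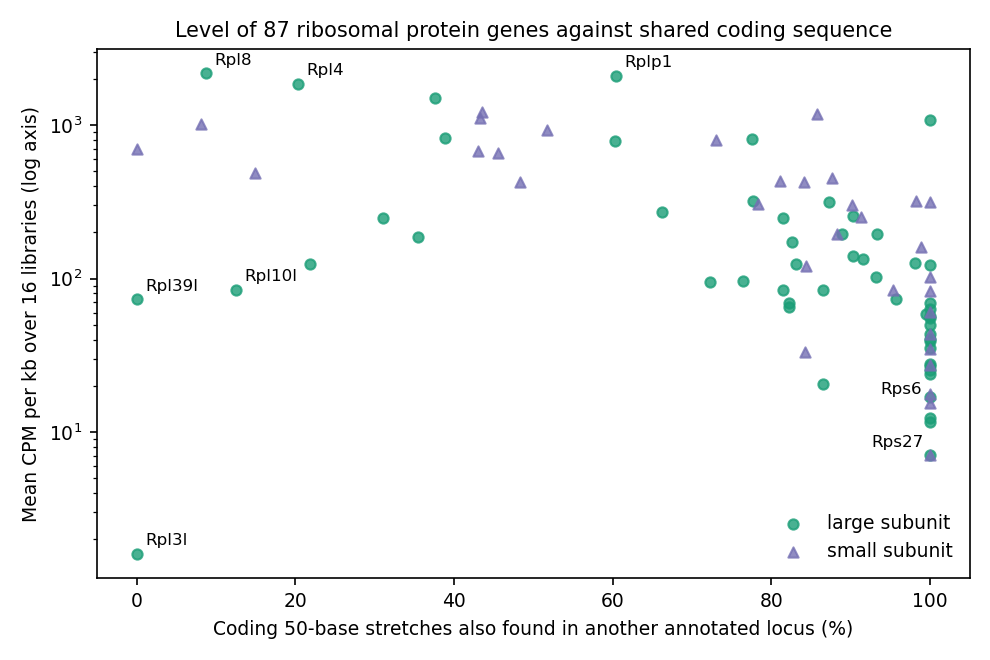
Mean level of each ribosomal protein gene over the 16 libraries (CPM per kilobase, log axis) against the share of its coding 50-base stretches found at another annotated locus (percent). Circles are large-subunit and triangles small-subunit genes; genes at 95% or more shared sequence have a median of 43.7 CPM per kb, against 670 below 50%.

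The ribosomal protein mRNAs varied little across the 8 groups compared with other genes. The ratio of the highest to the lowest group mean had a median of 1.27 over the 87 genes, against 1.95 over the 13912 genes with counts in all groups. It exceeded 1.5 in 15 of the 87 genes (17.2%), against 71% of all genes, and 10 of those 15 are fully shared with other loci. It exceeded 2 in Rpl39l (4.09), Rpl3l (4.0) and Rpl10l (2.97), which is 3.45% of the genes against 48.7% of all genes. Rpl13a, a large-subunit protein often used as a reference gene, varied least (1.05).

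Summed over the 87 genes, ribosomal protein mRNAs made up 2.18% to 2.42% of the counts of a library. In 2i/LIF the share was 2.38% ± 0.0267 (SD, n = 2) in the 0 h controls and 2.3% ± 0.0187, 2.28% ± 0.00716 and 2.42% ± 0.00697 after 12, 24 and 40 h of exit. The serum arm had 2.35% ± 0.077, 2.3% ± 0.00111, 2.21% ± 0.0439 and 2.35% ± 0.000395 at the same times. In both arms the 24 h group was the lowest of the 4. The 95% Wilson interval of a library's share was about 0.01 percentage points to either side, for example 2.17% to 2.19% around 2.18% in replicate 1 at 24 h in the serum arm, and covers counting error only. With 2 libraries against 2 an exact two-sided permutation test cannot give a p below 0.333, so shares are given without a test.

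**Figure D2:**
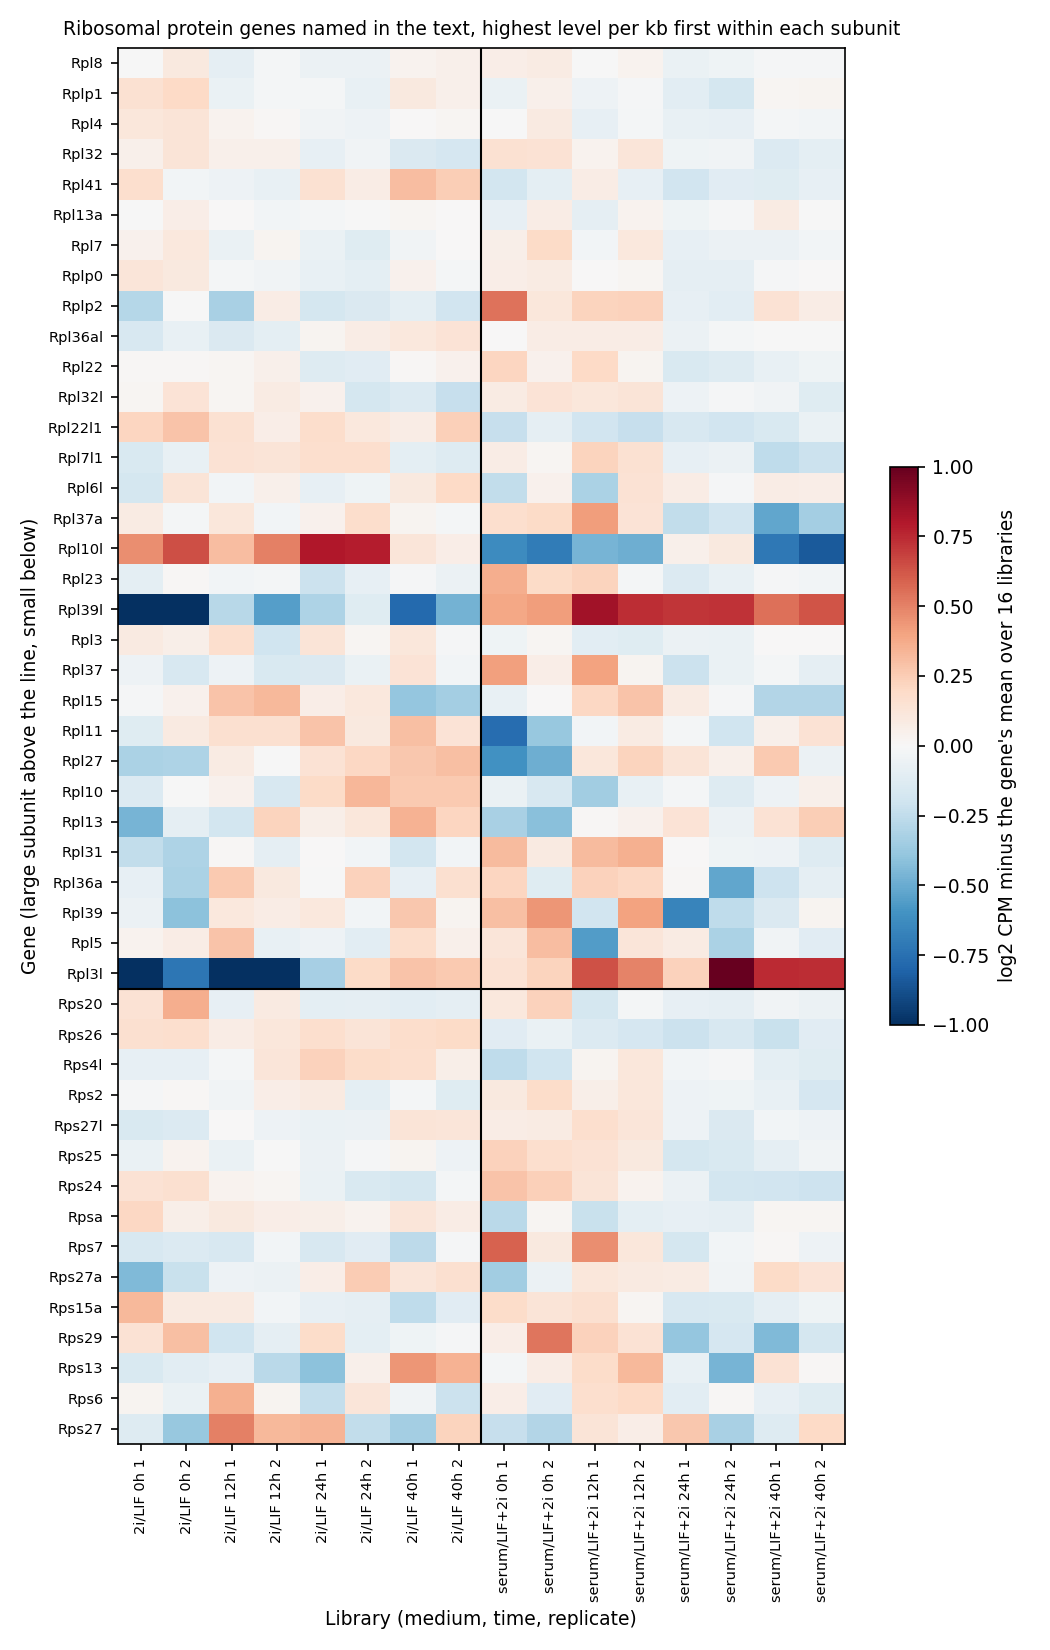
Each row is a ribosomal protein gene named in the text and each column 1 of the 16 libraries; colour gives log2 CPM minus the gene's mean over libraries, capped at 1 in either direction, with large-subunit genes above the line. Most rows stay near 0; Rpl39l, Rpl10l and the barely detected Rpl3l stand out between the 2 media.

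Each gene was tested with edgeR's quasi-likelihood test across all 14288 genes that passed the filter. A gene was called at a Benjamini-Hochberg adjusted p under 0.05. Differences are log2 fold changes ± SE from 2 libraries a group, all adjusted p-values below are from this test, and positive values mean higher at the later time or in serum/LIF+2i. Because most differences were small, each call was also followed through fits that left out each library of the comparison in turn and through 4 other scalings; a call that passed in every one of these is said below to have held throughout. Such fits cannot show whether the reads of a gene came from its copies at other loci. Numbers of calls under a single alternative fit are given below without the share of all genes in that fit. Whether the background moved alike is therefore not shown.

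**Figure D3:**
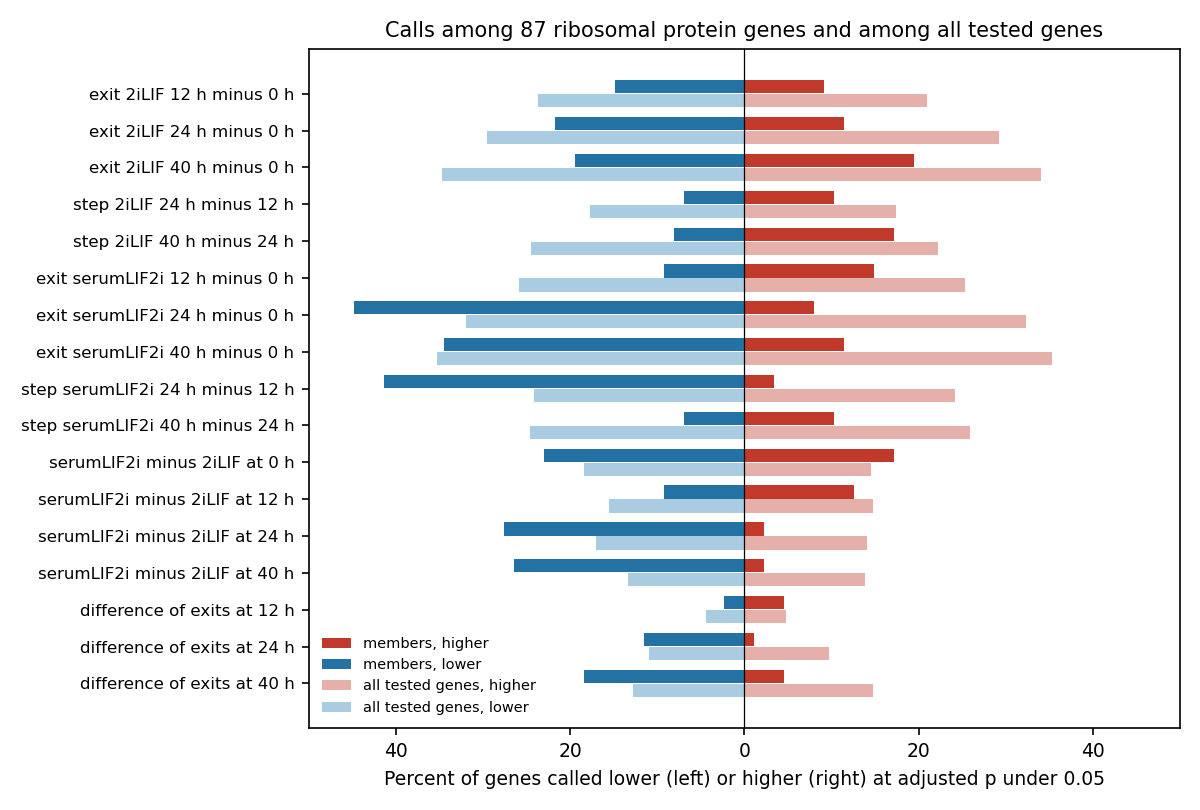
Percent of the 87 ribosomal protein genes and of all 14288 genes called higher or lower in each of 17 comparisons. In the exit comparisons and between exit times the members' bars are shorter than those of all genes, except for lower calls in the serum arm at 24 h (44.8% of members, 32% of all genes) and from 12 to 24 h (41.4% and 24.2%).

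Exit from 2i/LIF moved a smaller share of the ribosomal protein mRNAs than of all genes, and by small amounts. At 12 h, 8 genes were called higher, 9.2% of the 87 against a background of 21% of all genes tested, and 13 lower, 14.9% against 23.7%. At 24 h, 10 were higher (background 29.2%) and 19 lower (background 29.6%). At 40 h, 17 were higher (background 34.1%) and 17 lower (background 34.7%). The members' median absolute log2 change at 40 h was 0.13, against 0.53 over all genes, and the median signed change was 0.02 against 0.01. Between 12 and 24 h, 9 genes rose (background 17.4%) and 6 fell (background 17.7%), and between 24 and 40 h, 15 rose (background 22.2%) and 7 fell (background 24.5%). The 12 h count of 21 calls was 13 without replicate 2 at 0 h, the 24 h count of 29 was 18 without replicate 2 at 24 h, and the count of 22 between 24 and 40 h was 12 and 14 without replicates 1 and 2 at 24 h. The split at 40 h depended on scaling, with 30 higher and 7 lower under library size alone and 22 and 12 with ribosomal RNA genes left out. At 12 h it was 13 and 5 with ribosomal RNA genes left out, at 24 h 13 and 14 under library size alone, and between 24 and 40 h 24 and 4 under library size alone and 18 and 4 with DESeq2's size factors.

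After exit from serum/LIF+2i more of these mRNAs were called lower at 24 and 40 h than from 2i/LIF, with the largest count at 24 h. The libraries at these 2 times were also deeper in the serum arm, at 9065257 to 11142744 counts against 6629047 to 7858428 in 2i/LIF. The part of depth in the numbers of calls was not tested. At 12 h, 13 genes were higher (background 25.3%) and 8 lower (background 25.9%). By 24 h, 39 of the 87 genes (44.8%) were lower against a background of 32%, while 7 (8.05%) were higher against 32.4%. At 40 h, 30 were lower and 10 higher, with backgrounds of 35.3% in each direction. In the step from 12 to 24 h, 36 fell and 3 rose, with backgrounds of 24.2% in each direction, and from 24 to 40 h, 9 rose (background 25.9%) and 6 fell (background 24.6%). The changes were again small: the median over the 87 genes was -0.11 at 24 h, with -0.06 over the 54 large-subunit and -0.15 over the 33 small-subunit genes. For lower calls at 24 h, 20 genes held throughout, which is 23% of the 87 and 24% of all genes under the same demand, so the excess over the background was not seen among these firmer calls. Of the 36 lower calls from 12 to 24 h, 10 held throughout, which is 11.5% of the 87 against 15.9% of all genes.

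The count at 24 h was 36 to 42 calls with any 1 library left out, and under library size alone 30 genes were lower and 8 higher. Without replicate 1 at 24 h, the library with the most ribosomal RNA counts, 30 were lower and 6 higher, but the step from 12 to 24 h dropped from 39 to 20 calls. The step from 24 to 40 h dropped from 15 to 9 calls without replicate 1 at 40 h. At 40 h the split moved to 19 higher and 14 lower under library size alone and to 15 and 23 with DESeq2's size factors, and from 24 to 40 h it was 24 and 4 under library size alone. Library size alone moved the median of all genes by at most 0.08.

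The sharing of sequence moved with these counts. Of the 39 lower calls at 24 h in the serum arm, 23 were among the 34 genes with 50% to under 95% shared sequence and 10 among the 18 below 50%, while the 35 most shared genes gave 6, with 4 higher. Median standard errors were 0.04 in the least shared class, 0.05 in the middle class and 0.1 in the most shared class. The part of sequence sharing in the counts was not tested.

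The stalk of the large subunit, made of Rplp0, Rplp1 and Rplp2, recruits translation factors to the ribosome. Rplp0 stood at 1163 and 1141 CPM at 0 h in 2i/LIF, 1053 and 1042 at 12 h, 1015 and 1000 at 24 h, and 1100 and 1052 at 40 h. Each exit library lay below both 0 h libraries. The log2 change was -0.14 ± 0.03 at 12 h (adjusted p = 3.3e-04) and -0.19 ± 0.03 at 24 h (adjusted p = 3.3e-07), and both held throughout; the change at 40 h was -0.1 (adjusted p = 0.00693), and its call was lost under library size alone (-0.03). In the serum arm Rplp0 was 1119 and 1133 CPM at 0 h and 1005 in both 24 h libraries (-0.16 ± 0.03, adjusted p = 8.4e-06, held throughout). Rplp1, which pairs with Rplp2 on the stalk, fell in 2i/LIF from 1097 and 1131 CPM to 944 and 972 at 12 h and 971 and 936 at 24 h, by 0.22 on the log2 scale at both times (SE 0.04, adjusted p = 7.4e-08 and 2.0e-08, held throughout). At 0 h it was lower in serum/LIF+2i, at 940 and 1021 CPM (-0.18 ± 0.04, adjusted p = 9.1e-06). Rplp2 varied between replicates, at 173 and 128 CPM at 0 h in the serum arm, and its only call, -0.44 ± 0.15 at 24 h (adjusted p = 0.0338), was lost without replicate 1 at 0 h (-0.21).

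Rpl5 and Rpl11 travel with 5S ribosomal RNA and can bind MDM2 when ribosome assembly fails. Rpl11 was low in both 0 h serum libraries, at 15 and 19.5 CPM, against 24.9 and 26.9 at 12 h, 25.1 and 22.1 at 24 h and 26.3 and 28 at 40 h. No exit library of that arm overlapped the 0 h libraries. The rise was 0.59 ± 0.13 at 12 h (adjusted p = 2.7e-05) and 0.65 ± 0.12 at 40 h (adjusted p = 7.3e-07), which held throughout, and 0.45 ± 0.13 at 24 h (adjusted p = 0.00106), whose call was lost without replicate 1 at 0 h (0.27). In 2i/LIF, Rpl11 was 23.4 and 27 CPM at 0 h and 31.2 and 27.9 at 40 h and was not called at any time. Rpl5 stood between 9.6 and 17.6 CPM in all libraries, with 1 call, -0.37 ± 0.16 at 12 h in the serum arm (adjusted p = 0.043), where the replicates were 9.6 and 15.4. All coding 50-base stretches of Rpl11 and of Rpl5 occur at another annotated locus, so their counts may include reads of copies.

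Rps27a encodes a fusion of ubiquitin and a small-subunit protein, and all of its coding 50-base stretches occur at another annotated locus. It went from 26.2 and 30.5 CPM at 0 h in 2i/LIF to 34.3 and 34.2 at 12 h, 37.3 and 42.4 at 24 h and 38.8 and 39.8 at 40 h, and no later library overlapped the controls. The rise of 0.48 ± 0.11 at 24 h (adjusted p = 4.4e-05) and of 0.46 ± 0.1 at 40 h (adjusted p = 4.5e-05) held throughout, while the 0.27 at 12 h (adjusted p = 0.0362) was lost without replicate 1 at 0 h (0.16). From serum/LIF+2i it rose by 0.29, 0.22 and 0.36 (adjusted p = 0.00881, 0.0428 and 4.0e-04), but without replicate 1 at 0 h, which read 27.9 CPM against 34.2 in replicate 2, the values were 0.16, 0.08 and 0.22 and none was called. Rps6, the substrate of the S6 kinases downstream of mTORC1, was between 18.2 and 27.5 CPM and was called in none of the 17 comparisons. Rpsa, the small-subunit protein also known as the laminin receptor, was called only between media, at -0.25 ± 0.07 at 0 h (adjusted p = 0.0178) and -0.24 ± 0.07 at 12 h (adjusted p = 0.0245), and neither call held throughout.

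Among small-subunit proteins, those with falls that held throughout at both 24 and 40 h in the serum arm included Rps24, Rps15a, Rps25 and Rps2. Larger falls were called there for Rps29 (-0.59 ± 0.17 at 24 h and -0.63 ± 0.17 at 40 h, adjusted p = 0.00157 and 4.5e-04) and Rps7 (-0.47 ± 0.17 at 24 h, adjusted p = 0.04), but these 3 calls did not hold throughout. Rps24, a protein mutated in some families with Diamond-Blackfan anaemia, stood at 293 and 296 CPM at 0 h in 2i/LIF, 271 and 269 at 12 h, 253 and 239 at 24 h and 235 and 261 at 40 h. From serum/LIF+2i it went from 323 and 313 CPM through 290 and 272 and then 254 and 234 to 232 and 230. All exit libraries lay below the controls of their arm. The log2 change was -0.26 ± 0.04 at 24 h from 2i/LIF (adjusted p = 2.2e-07), and -0.25 ± 0.04 at 40 h (adjusted p = 3.1e-07). From serum/LIF+2i it was -0.18, -0.38 and -0.46, each ± 0.04 (adjusted p = 1.8e-04, 7.9e-14 and 2.8e-18), and these 5 calls held throughout.

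Rps15a, another small-subunit protein, fell in both arms. It read 212 and 180 CPM at 0 h in 2i/LIF against 160 and 159 at 24 h and 142 and 156 at 40 h (-0.29 ± 0.06 and -0.4 ± 0.06, adjusted p = 1.2e-05 and 9.8e-09). Without replicate 1 at 0 h the 24 h value was -0.18, still called. From serum/LIF+2i it fell from 192 and 185 CPM to 151 and 152 at 24 h (-0.31 ± 0.05, adjusted p = 1.3e-06) and to 159 and 164 at 40 h (-0.22 ± 0.05, adjusted p = 2.3e-04), the latter -0.14 under library size alone. Rps25, a small-subunit protein that some viral internal ribosome entry sites need, fell in the serum arm from 257 and 246 CPM to 194 and 197 at 24 h and 206 and 214 at 40 h (-0.37 ± 0.04 and -0.26 ± 0.04, adjusted p = 1.2e-12 and 4.6e-08). In 2i/LIF it was 209 and 225 CPM at 0 h and between 209 and 223 later, and no change was called. The difference between the arms' exits was -0.34 ± 0.06 at 24 h (adjusted p = 1.3e-05) and -0.27 ± 0.06 at 40 h (adjusted p = 4.6e-04), and both held throughout. Of the coding 50-base stretches, 98.2% in Rps25 and 84.2% in Rps15a occur at another annotated locus, so their counts may include reads of copies.

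Rps20 fell in all 6 exit comparisons, from 654 and 759 CPM at 0 h in 2i/LIF to 552 and 554 at 24 h (-0.35 ± 0.08, adjusted p = 0.0057) and 548 and 555 at 40 h (-0.36 ± 0.08, adjusted p = 0.00414). Those 2 calls held throughout and the other 4 did not. Rps13 was low, at 9.13 and 9.42 CPM, and rose to 13.8 and 12.9 at 40 h from 2i/LIF (0.52 ± 0.18, adjusted p = 0.00661). Rps2 fell from 453 and 480 CPM to 403 and 376 at 40 h in the serum arm (-0.26 ± 0.04, adjusted p = 1.5e-06). Of the coding 50-base stretches, 85.7% in Rps20, 100% in Rps13 and 84.1% in Rps2 occur at another annotated locus.

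Among large-subunit proteins, Rpl27 rose in every exit comparison. It stood at 23.4 and 23.5 CPM at 0 h in 2i/LIF, 30.8 and 29.1 at 12 h, 32.1 and 33.6 at 24 h and 35.1 and 35.9 at 40 h. In the serum arm it was 19.1 and 20.7 CPM at 0 h, 31.5 and 33.9 at 12 h, 31.9 and 30.1 at 24 h and 34.8 and 28 at 40 h. No exit library overlapped its controls. The rise was 0.48 ± 0.12 at 24 h (adjusted p = 1.9e-04) and 0.59 ± 0.11 at 40 h (adjusted p = 1.6e-06) from 2i/LIF and 0.72, 0.64 and 0.66, each ± 0.11, from serum/LIF+2i (adjusted p = 3.0e-08, 4.3e-07 and 5.7e-08). These calls held throughout, whereas the 0.35 at 12 h from 2i/LIF (adjusted p = 0.00913) was lost without replicate 2 at 0 h (0.36) and without replicate 1 at 12 h (0.31). All of Rpl27's coding 50-base stretches occur at another locus.

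Rpl13 rose by 40 h in both arms, from 15.5 and 20.1 CPM to 27.1 and 24.7 from 2i/LIF (0.53 ± 0.13, adjusted p = 1.8e-04) and from 17 and 16 to 23.6 and 25.3 from serum/LIF+2i (0.56 ± 0.12, adjusted p = 3.3e-05). All of Rpl13's coding 50-base stretches occur at another annotated locus. Rpl15 rose and then fell in both arms. Its values were 103 and 107 CPM at 0 h in 2i/LIF, 127 and 130 at 12 h, 109 and 112 at 24 h and 79.5 and 82.2 at 40 h, and 99 and 104, 120 and 127, 110 and 103, and 84.9 in both libraries in the serum arm. The 12 h libraries were the highest and the 40 h libraries the lowest of each arm. The change was 0.29 ± 0.06 at 12 h in both arms (adjusted p = 1.0e-05 and 8.2e-06), and at 40 h -0.38 ± 0.06 from 2i/LIF and -0.26 ± 0.06 from serum/LIF+2i (adjusted p = 5.3e-08 and 4.5e-05), and all 4 calls held throughout. Rpl15 is fully shared with other loci and overlaps exons of Nkiras1 on the opposite strand, so its counts are uncertain in that respect.

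Rpl32 fell at 40 h from 788 and 834 to 689 and 678 CPM in 2i/LIF (-0.25 ± 0.04, adjusted p = 9.4e-10) and from 844 and 841 to 692 and 712 in the serum arm (-0.26 ± 0.04, adjusted p = 4.5e-11). It overlaps Cand2 on the opposite strand. Rpl37a, a small zinc-binding protein, changed in the serum arm, from 55.4 and 56.4 CPM at 0 h and 65.8 and 54.2 at 12 h to 41.5 and 43.1 at 24 h and 34.3 and 39 at 40 h. In 2i/LIF all 8 libraries lay between 48.4 and 55.6 CPM. The change was -0.4 ± 0.08 at 24 h (adjusted p = 1.5e-05) and -0.61 ± 0.08 at 40 h (adjusted p = 1.6e-10), the difference between the arms' exits was -0.48 ± 0.12 (adjusted p = 0.00153) and -0.59 ± 0.12 (adjusted p = 5.5e-05), and all 4 held throughout. Rpl23, which also binds MDM2, fell in the serum arm from 115 and 102 CPM to 81.1 and 84.6 at 24 h (-0.39 ± 0.06, adjusted p = 3.7e-08) and 88.4 and 87.4 at 40 h (-0.3 ± 0.06, adjusted p = 5.3e-06). Of the coding 50-base stretches, 81.5% in Rpl37a and 86.5% in Rpl23 occur at another annotated locus.

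**Figure D4:**
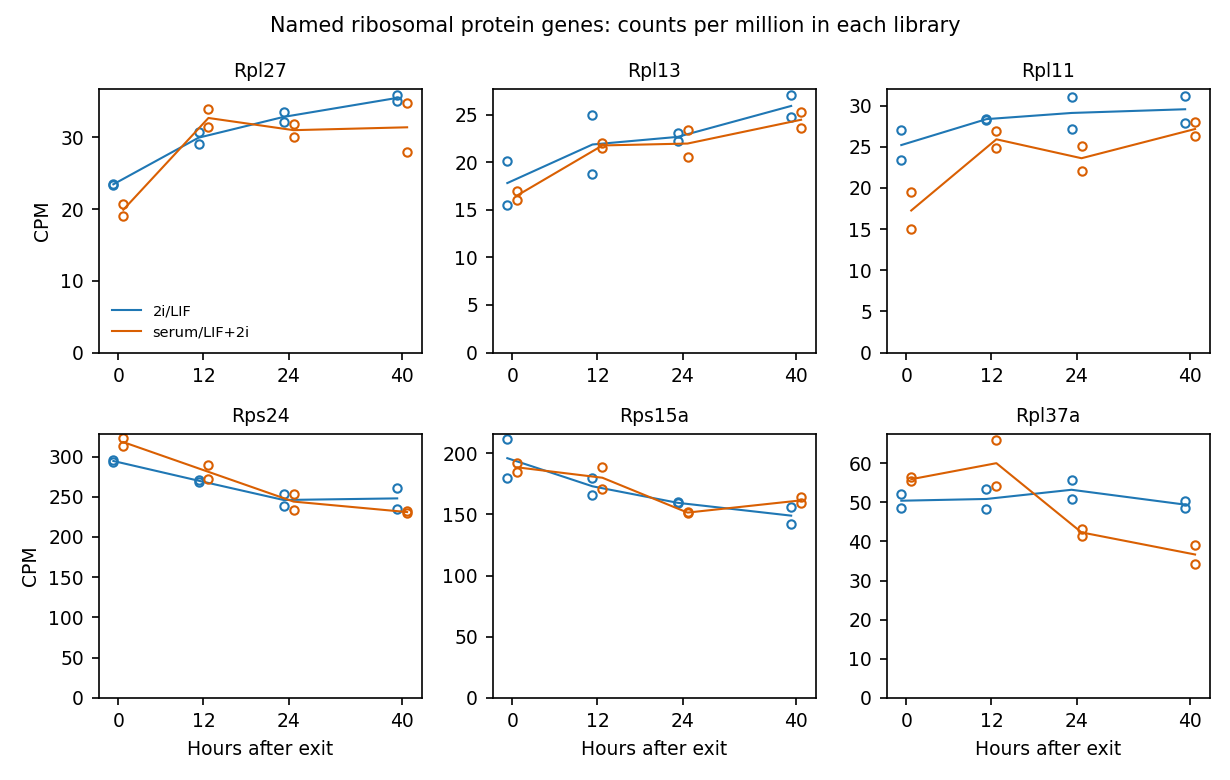
CPM in each library (points) and group means (lines) at 0, 12, 24 and 40 h of exit in the 2 media for Rpl27, Rpl13, Rpl11, Rps24, Rps15a and Rpl37a. Rpl27 rises and Rps24 falls in both media, and Rpl37a lies between 34.3 and 43.1 CPM at 24 and 40 h in the serum arm, against 48.4 to 55.6 in all 2i/LIF libraries.

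The exits from the 2 media use different control libraries, so the genes called in both can be counted. At 12 h, 6 genes rose in both (Rpl15, Rpl27, Rpl39l, Rpl7l1, Rps27a and Rps4l) and 3 fell in both (Rpl4, Rps20 and Rps24), out of 21 called in each. At 24 h, 6 rose and 18 fell in both, out of 29 called from 2i/LIF and 46 from serum/LIF+2i. At 40 h, 5 rose (Rpl13, Rpl27, Rpl39l, Rps27a and Rps4l) and 12 fell, out of 34 and 40. Over all genes tested, 16.4% rose and 18% fell in both at 12 h, 22.5% and 23.2% at 24 h, and 27% and 27.5% at 40 h. The members' shares were lower in each case, 6.9% and 3.45%, 6.9% and 20.7%, and 5.75% and 13.8%. Opposite calls were few, 1 to 2 of the 87 genes at a time, against 0.441%, 1.81% and 2.16% of all genes: Rpl10l at 12 h, Rpl31 and Rpl7l1 at 24 h, and Rps27l at 40 h, and in none of these 4 did the calls of both arms hold throughout.

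The 3 genes whose group means ranged over more than 2-fold were all paralogues or retrocopies. Rpl39l, a paralogue of the exit-tunnel protein Rpl39, shares none of its coding 50-base stretches with another annotated locus. It lies on chromosome 16 at 10170197 to 10174911 (GRCm38). It stood at 22.2 and 22.8 CPM at 0 h in 2i/LIF, 43.9 and 36.4 at 12 h, 43 and 49.1 at 24 h and 31.1 and 38.3 at 40 h. In the serum arm it was 69.5 and 71.1 CPM at 0 h, 95.3 and 88.7 at 12 h, 87.6 and 88 at 24 h and 78 and 82.2 at 40 h. Every serum library was above every 2i/LIF library, and within each arm every exit library was above the controls.

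Rpl39l was higher in the serum arm by 1.64 ± 0.1 on the log2 scale before exit (adjusted p = 3.5e-29), and by 1.19 ± 0.08, 0.93 ± 0.08 and 1.21 ± 0.08 at the successive exit times (adjusted p = 8.6e-27, 1.7e-20 and 7.5e-27). It rose in exit from 2i/LIF by 0.83 ± 0.11, 1.03 ± 0.11 and 0.62 ± 0.11 (adjusted p = 1.2e-10, 3.9e-15 and 7.1e-07), and from serum/LIF+2i by 0.38 ± 0.07 at 12 h and 0.32 ± 0.07 at 24 h (adjusted p = 1.4e-06 and 2.7e-05). These calls held throughout, while the rise of 0.19 at 40 h in the serum arm (adjusted p = 0.0125) was lost without replicate 1 at 0 h (0.17) and without replicate 2 at 40 h (0.15). The rise by 24 h was smaller in the serum arm, with a difference of -0.71 ± 0.13 (adjusted p = 7.4e-06) that held throughout. Per kilobase, Rpl39l made 62.1% ± 4.51 (SD, n = 2) of the sum of Rpl39 and Rpl39l in the 2i/LIF controls and 77.1% ± 0.97 in the serum controls. That share rests on Rpl39, which read only 4.98 to 10.7 CPM.

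Rpl10l, a retrocopy of Rpl10, a protein that joins the large subunit late in its assembly, went the other way between media. It lies on chromosome 12 at 66283379 to 66284401 (GRCm38), with 12.5% of its stretches shared. In 2i/LIF it was 111 and 126 CPM at 0 h, 100 and 114 at 12 h, 140 and 139 at 24 h and 87.4 and 84.5 at 40 h. In serum/LIF+2i it was 52.2 and 49.6 CPM at 0 h, 58.3 and 57.3 at 12 h, 83.6 and 86 at 24 h and 49.1 and 45 at 40 h. Both arms peaked at 24 h, and at each time the serum libraries lay below the 2i/LIF libraries.

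The medium differences of Rpl10l were -1.23 ± 0.07 before exit and then -0.89 ± 0.07, -0.72 ± 0.06 and -0.87 ± 0.07 (adjusted p = 1.4e-30, 5.3e-23, 1.9e-20 and 1.7e-21). From 12 to 24 h it rose by 0.38 ± 0.06 in 2i/LIF and 0.56 ± 0.07 in the serum arm (adjusted p = 3.9e-08 and 2.1e-12), and from 24 to 40 h it changed by -0.7 ± 0.06 and -0.85 ± 0.07 (adjusted p = 2.0e-19 and 1.1e-22). These calls held throughout. Against 0 h, the serum arm was up by 0.74 ± 0.07 at 24 h (adjusted p = 3.9e-17) and 2i/LIF was at -0.47 ± 0.06 at 40 h (adjusted p = 1.1e-10). The difference between exits was 0.51 ± 0.09 at 24 h (adjusted p = 8.0e-06), which held throughout, and 0.36 at 40 h (adjusted p = 0.00338), which was lost without replicate 2 at 0 h in 2i/LIF (0.26).

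Rpl7l1, a paralogue of Rpl7 found in assembling large subunits, rose early and then parted between the arms. It was 291 and 307 CPM at 0 h in 2i/LIF, 358 and 354 at 12 h, 363 in both 24 h libraries and 303 and 295 at 40 h. In the serum arm it was 340 and 327, 378 and 359, 305 and 310, and 271 and 278 CPM. The 24 h libraries lay above the controls in 2i/LIF and below them in the serum arm. The change at 24 h was 0.28 ± 0.04 from 2i/LIF (adjusted p = 2.0e-09), and the difference of the exits was -0.39 ± 0.06 (adjusted p = 1.1e-08), both held throughout. The serum value alone, -0.12 (adjusted p = 0.00766), was lost without replicate 1 at 0 h (-0.09) or at 24 h (-0.1). At 40 h the serum arm was at -0.28 ± 0.04 (adjusted p = 2.7e-10) and 2i/LIF was at 0.00, not called, with a difference of -0.28 ± 0.06 (adjusted p = 3.4e-05).

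Rps27l, a paralogue of Rps27 that p53 induces, gave opposite calls at 40 h. It went from 177 and 179 to 215 and 213 CPM in 2i/LIF (0.27 ± 0.05, adjusted p = 3.1e-07) and from 207 and 208 to 193 and 190 in the serum arm (-0.12 ± 0.04, adjusted p = 0.0121). The first held throughout and the second was lost under library size alone (-0.04), but the difference of -0.39 ± 0.06 between exits (adjusted p = 5.8e-07) held throughout. Rps4l, annotated as a transcribed pseudogene, was abundant, at 432 and 433 CPM at 0 h in 2i/LIF and 385 and 399 in the serum arm. It rose by 0.29 ± 0.04 at 24 h from 2i/LIF, to 536 and 520 CPM, and by 0.3 ± 0.04 at 12 h from serum/LIF+2i, to 467 and 495 (adjusted p = 2.3e-10 and 1.1e-10). Rpl36al, a copy of Rpl36a, rose by 0.23 ± 0.06 at 40 h from 2i/LIF, from 115 and 122 to 138 and 141 CPM (adjusted p = 9.9e-05). Rpl3l stayed between 0.822 and 4.69 CPM; it was higher in the serum arm at 12 h, at 3.51 and 3.19 against 0.822 and 1.07 (1.8 ± 0.42, adjusted p = 2.7e-04).

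**Figure D5:**
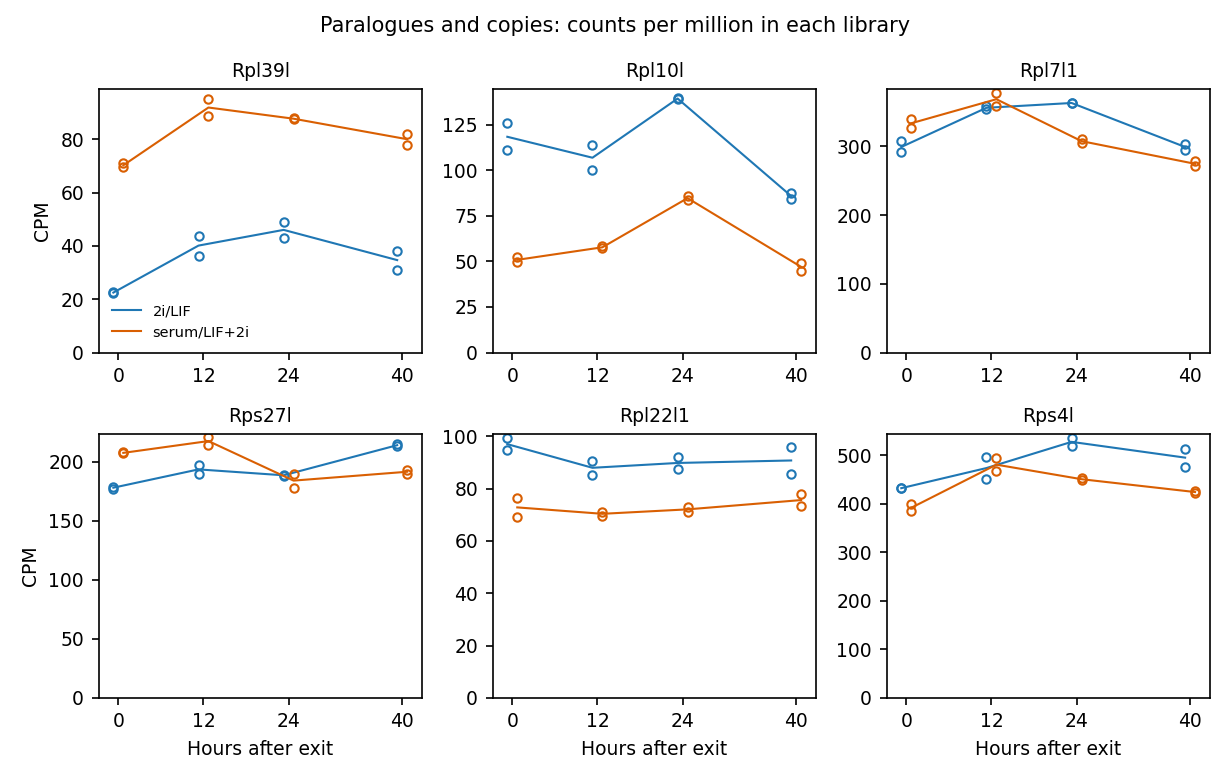
CPM in each library (points) and group means (lines) at 0, 12, 24 and 40 h in the 2 media for Rpl39l, Rpl10l, Rpl7l1, Rps27l, Rpl22l1 and Rps4l. Rpl39l lies higher and Rpl10l and Rpl22l1 lie lower in the serum arm at all 4 times; Rpl10l peaks at 24 h in both.

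Of the standard partners of these paralogues, Rpl3 and Rps27 gave no call in any comparison, and Rpl36a gave 1, -0.46 ± 0.16 from 12 to 24 h in the serum arm (adjusted p = 0.0118). Rpl7 fell by 24 h from 788 and 820 to 729 and 702 CPM in 2i/LIF (-0.17 ± 0.04, adjusted p = 1.2e-04) and from 796 and 872 to 719 and 731 in the serum arm (-0.2 ± 0.04, adjusted p = 3.2e-06), the latter -0.12 without replicate 2 at 0 h. Rpl22, which also regulates splicing of other mRNAs, fell in the serum arm from 587 and 522 to 455 and 462 CPM at 24 h (-0.27 ± 0.04, adjusted p = 9.9e-09). Rpl39 fell there from 9.7 and 10.7 to 4.98 and 6.62 CPM (-0.81 ± 0.2, adjusted p = 2.2e-04), a larger change than that of Rpl39l in the same comparison, and the difference between the arms' exits at 24 h was -1.08 ± 0.3 (adjusted p = 0.00382), a call that did not hold throughout. Rpl10 is fully shared with other loci, among them the copies that the table may not separate, and its calls did not hold throughout.

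Between media at 0 h, 15 genes were higher in serum/LIF+2i (background 14.6%) and 20 lower (background 18.4%). At 12 h, 11 were higher (background 14.8%) and 8 lower (background 15.5%). The later times leaned to lower values: 2 higher (background 14.1%) and 24 lower, 27.6% of the 87 against a background of 17%, at 24 h, and 2 higher (background 13.9%) and 23 lower, 26.4% against 13.4%, at 40 h. Lower calls that held throughout were 9 at 24 h and 10 at 40 h, 10.3% and 11.5% of the 87, against 8.52% and 5.87% of all genes under the same demand. The 35 calls at 0 h were 21 without replicate 1 at 0 h in 2i/LIF, the 19 at 12 h were 11 without replicate 1 at 12 h in 2i/LIF, and the 25 at 40 h were 15 without replicate 1 at 40 h in 2i/LIF. Under library size alone the split at 40 h was 4 higher and 17 lower.

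Rpl39l was the only gene of the 87 called higher in the serum arm at all 4 times, and 5 genes, among them Rps26, Rpl22l1 and Rpl10l, were called lower at all 4. The share of all genes called at all 4 times is not given, so these counts have no background beside them. Rps26, a small-subunit protein at the mRNA exit channel, lay between 375 and 408 CPM in the 8 libraries of the 2i/LIF arm and between 306 and 341 in the 8 of the serum arm, with no overlap. Its differences were -0.25, -0.24, -0.33 and -0.35, each ± 0.04, at 0, 12, 24 and 40 h (adjusted p = 8.0e-08, 1.9e-07, 2.6e-12 and 1.1e-13), and all 4 held throughout. Rpl22l1 was 94.8 and 99.3 against 69.3 and 76.4 CPM at 0 h (-0.42 ± 0.07, adjusted p = 2.9e-07) and was called in neither exit; at 40 h its -0.26 was lost without replicate 2 in 2i/LIF (-0.18).

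Whether exit changed a gene by different amounts in the 2 arms was tested by the interaction of arm and time. At 12 h the log2 change was greater from serum/LIF+2i for 4 genes (background 4.8%) and smaller for 2 (background 4.4%), and none of these 6 held throughout. At 24 h the counts were 1 (background 9.77%) and 10 (background 11%), and at 40 h 4 (background 14.8%) and 16 (background 12.8%). The 11 calls at 24 h were 23 without replicate 2 at 0 h in the serum arm, and the 6 at 12 h were 2 without replicate 1 at 0 h or at 12 h in 2i/LIF, 3 without replicate 2 at 0 h in 2i/LIF and 3 without replicate 1 at 0 h in the serum arm. At 12 h the split was 2 and 2 under library size alone and 4 and 1 with DESeq2's size factors. Those that held throughout were Rpl10l, Rpl37a, Rpl39l, Rpl7l1, Rps25 and Rps27l at 24 h and Rpl36al, Rpl37a, Rpl7l1, Rps25 and Rps27l at 40 h. Rpl36al differed by -0.28 ± 0.08 at 40 h (adjusted p = 0.00266).

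The genes with and without a pyrimidine run near an annotated start were also counted apart. Such a run was near 18.3% of all starts, and a gene without one may still have a TOP mRNA. Of the 30 genes with a pyrimidine run near a start, 13 were lower and 0 higher at 24 h in the serum arm, with a median log2 change of -0.1, and of the 35 without one, 17 were lower and 5 higher, with a median of -0.12. The background was 32% lower and 32.4% higher, and the difference between the 2 sets was not tested. At 40 h from 2i/LIF the medians were 0.01 and 0.02. Rps15a and Rps24, printed above with a run, fell, and so did Rpl37a and Rps25, printed without one, while Rps6 carries a run of 10 pyrimidines and was not called. Rps6 was low, at 18.2 to 27.5 CPM, and its change at 40 h from 2i/LIF was -0.1 (95% interval -0.36 to 0.17). That interval includes the -0.25 of Rps24 in the same comparison, so Rps6 is not shown to be unchanged. The printed Rps25 window does hold a pyrimidine stretch further upstream of the annotated start.

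Genes that work with the ribosomal proteins were described from 9 lists at 40 h, given as counts with no test of the list. The median over all genes tested was 0.01 from 2i/LIF and 0 from serum/LIF+2i. The background was 34.1% higher and 34.7% lower from 2i/LIF, and 35.3% in each direction from serum/LIF+2i. Ribosome assembly factors rose in most cases: 37 of 47 (78.7%) were higher and 0 lower at 40 h from 2i/LIF (median 0.3), and 28 (59.6%) higher and 5 (10.6%) lower from serum/LIF+2i (median 0.15). Ncl, encoding nucleolin, went from 2945 ± 44.7 to 4494 ± 51.4 CPM (SD, n = 2) in 2i/LIF (0.61 ± 0.03, adjusted p = 1.7e-38), and Ebna1bp2 from 126 ± 1.69 to 215 ± 9.73 CPM in the serum arm (0.76 ± 0.05, adjusted p = 1.9e-29). At 0 h, 26 of the 47 were higher and 2 lower in serum/LIF+2i (median 0.14), with backgrounds of 14.6% and 18.4%. In the RNA polymerase I list, 6 of 11 genes (54.5%) were higher and 3 (27.3%) lower from 2i/LIF and 4 (36.4%) and 3 (27.3%) from serum/LIF+2i, the latter near the background, with Ubtf, an activator of ribosomal RNA transcription, lower in both (-0.42 ± 0.04 and -0.32 ± 0.04, adjusted p = 1.8e-18 and 4.9e-13). Of 6 chaperones of ribosomal proteins, 3 were higher and 0 lower in each arm, among them Grwd1 (0.34 ± 0.06 and 0.44 ± 0.05, adjusted p = 8.9e-08 and 1.0e-12).

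Translation factors that share the TOP element were called in both directions from 2i/LIF, with 5 of 16 (31.2%) higher and 7 (43.8%) lower (median -0.03). From serum/LIF+2i, 3 (18.8%) were higher and 11 (68.8%) lower (median -0.12), against a background of 35.3% in each direction. Pabpc1, the poly(A)-binding protein, fell from 2111 ± 83.5 to 1409 ± 38.4 CPM in 2i/LIF (-0.58 ± 0.03, adjusted p = 2.9e-33) with a log2 change in the serum arm of -0.45 ± 0.03 (adjusted p = 1.1e-24). Among 13 regulators of mTORC1, TOP mRNAs and Myc, 7 (53.8%) were higher and 2 (15.4%) lower from 2i/LIF and 6 (46.2%) and 4 (30.8%) from serum/LIF+2i. Myc, an activator of ribosome production, rose from 8.82 ± 0.444 to 57.2 ± 5.78 CPM in 2i/LIF (2.69 ± 0.12, adjusted p = 3.6e-41) and from 6.24 ± 0.936 to 100 ± 1.1 CPM in the serum arm (4.0 ± 0.11, adjusted p = 2.0e-62). Mycn, its relative, rose from 2i/LIF (1.15 ± 0.07, adjusted p = 5.7e-25) and fell from serum/LIF+2i (-0.32 ± 0.06, adjusted p = 7.0e-06), with a difference between exits of -1.47 ± 0.09 (adjusted p = 1.5e-21). Larp1, the TOP mRNA binding protein, rose by 0.59 ± 0.04 and 0.9 ± 0.04 (adjusted p = 2.7e-30 and 3.8e-46).

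Among 9 snoRNA host transcripts, 4 (44.4%) were higher and 3 (33.3%) lower from 2i/LIF and 1 and 3 (33.3%) from serum/LIF+2i, with Gas5, a TOP transcript without a protein product, lower in both (-0.14 ± 0.04 and -0.32 ± 0.04, adjusted p = 0.00269 and 4.6e-12). Of 9 p53 response genes, 3 (33.3%) were higher and 4 (44.4%) lower from 2i/LIF and 5 (55.6%) and 4 (44.4%) from serum/LIF+2i: Cdkn1a, the p21 inhibitor of cell division, was lower (-2.32 ± 0.05 and -2.03 ± 0.05, adjusted p = 5.5e-72 and 1.1e-67) and Sesn2, an inhibitor of mTORC1, higher (0.63 ± 0.05 and 1.11 ± 0.05, adjusted p = 3.0e-21 and 7.3e-43). Of 3 ribosomal protein genes outside the symbol rule, 1 was called lower and 0 higher at 40 h in each arm, namely Rack1, at -0.26 ± 0.03 from 2i/LIF and -0.15 ± 0.03 from serum/LIF+2i (adjusted p = 6.4e-12 and 3.3e-05).

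The mitochondrial ribosomal proteins, which are encoded in the nucleus but build a separate ribosome, gave other counts than the cytosolic ones. Of 77 tested among 78 in the table, 32 (41.6%) were higher and 4 (5.19%) lower at 40 h from 2i/LIF (median 0.17; background 34.1% and 34.7%), against 17 and 17 of the 87 cytosolic genes (median 0.02). From serum/LIF+2i, 16 (20.8%) were higher and 23 (29.9%) lower (median -0.02; background 35.3% each), against 10 and 30 (median -0.08). The interaction at 40 h gave 0 higher and 23 (29.9%) lower mitochondrial genes (median -0.21; background 14.8% and 12.8%), against 4 and 16 cytosolic genes (median -0.07). The difference between the 2 families was not tested. Mrps27 rose in both arms (0.82 ± 0.06 and 0.49 ± 0.06, adjusted p = 3.1e-23 and 2.0e-12) and Mrps2 fell in both (-0.81 ± 0.05 and -0.67 ± 0.05, adjusted p = 2.3e-27 and 5.8e-23).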

How the data were processed

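Total RNA was taken with TRIzol and libraries were made with the TruSeq Stranded mRNA kit, per the labels. The authors deposited raw counts per gene for 16 libraries; fastp, STAR, featureCounts and the mm10 build are named per the submitters' processing notes, and the annotation, strand setting and treatment of reads with several matches are not given in the sources used here. Total counts per library were 5931381 to 11142744. Genes were kept by filterByExpr (minimum count 10, minimum total 15), scaled by TMM and fitted with edgeR 4.0.16 (quasi-likelihood, robust) in R 4.3.3, in 1 model with a term per group and 8 residual degrees of freedom; p-values were two-sided and Benjamini-Hochberg adjusted over 14288 genes in each of 17 comparisons. DESeq2 1.42.0, other scalings, filters and left-out libraries were alternatives. The demand that a call hold in every left-out-library fit and 4 scalings was chosen after seeing the data. Levels are CPM of these counts, on TMM-scaled library sizes for single genes and on total counts for summed markers and -ps rows, per kilobase of exon where genes are compared. Sequence sharing was counted from mm10 coding sequences in stretches of 50 bases, matched to annotated transcripts of other loci. Same-numbered replicates did not deviate together, so numbers were not used as pairs. The fit was tested on simulated data in which 200 genes of any level were changed and all others were not. In the 40 h serum exit 34.8%, 63.6% and 84.1% of changes of 0.25, 0.5 and 1 log2 were recovered over 13715 genes. The genes named were the stalk, 5S and ubiquitin-fusion proteins, Rps6, Rpsa, the paralogue pairs, and in each comparison the 3 largest called changes in each direction with at least 5 CPM; the other genes named were chosen after their values were seen, and a few genes are not reported here. The members and lists were chosen with earlier results of these data known.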

Additional observations from a re-analysis of the deposited data

Results flagged for a closer look

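Exit changed some ribosomal protein genes by different amounts in the 2 arms, by the interaction in edgeR's quasi-likelihood test. The genes called numbered 6 after 12 h of exit, 11 after 24 h and 20 after 40 h, which is 6.9%, 12.6% and 23% of the 87 against 9.2%, 20.8% and 27.6% of all genes. At 12 h the log2 differences, serum arm minus 2i/LIF arm, were 0.33 for Rpl10l, 0.27 for Rpl41, 0.2 for Rplp1 and -0.45 for Rpl39l. At 24 h they were 0.51 for Rpl10l, -1.08 for Rpl39, -0.71 for Rpl39l and -0.5 for Rpl31. At 40 h they were 0.43 for Rpl11, 0.36 for Rpl10l, -0.82 for Rpl39, -0.59 for Rpl37a and -0.47 for Rpl37. Of these named values, Rpl10l and Rpl39l at 24 h and Rpl37a at 40 h were called in every left-out-library fit.

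Rows named -ps, which the symbol rule leaves out, held counts too. Of 33 such rows, 26 had a count, and together they took at most 437 CPM in a library. Rps15a-ps5 and Rpl34-ps1 were among the highest.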

How the results depend on the processing

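The counts of ribosomal protein genes called moved as follows. With DESeq2's Wald test they were 12 for exit from 2i/LIF at 12 h, 9 and 14 for its steps from 12 to 24 h and from 24 to 40 h, 24 for the step from 12 to 24 h in the serum arm, 13 and 15 between media at 24 and 40 h, and 2, 7 and 9 for the interactions at 12, 24 and 40 h. Under library size alone the step from 24 to 40 h in the serum arm gave 28. Demanding an absolute log2 change of at least 0.5 left 1, 1 and 6 for exit from 2i/LIF, 1 and 3 for its steps, 2, 4 and 5 for exit from serum/LIF+2i, 3 and 1 for its steps, 5, 3, 2 and 2 between media, and 0, 3 and 2 for the interactions, by the construction of that demand. With 1 library left out the counts ranged from 13 to 16, 18 to 26 and 25 to 33 for exit from 2i/LIF, 11 to 14 and 12 to 15 for its steps, 16 to 24, 36 to 42 and 33 to 39 for exit from serum/LIF+2i, 20 to 30 and 9 to 13 for its steps, 21 to 37, 11 to 26, 18 to 19 and 15 to 21 between media at 0, 12, 24 and 40 h, and 2 to 6, 9 to 23 and 14 to 22 for the interactions. A group left with 1 library is assumed to vary like the others. The cause of these moves was not tested. No share of all genes is given for these settings, so the moves are not shown to be particular to ribosomal protein genes. The replicate numbers are shared by name only, since same-numbered libraries did not deviate together (r = -0.02 to 0.03 over 28 pairs of groups). With the replicate number as a block, counts were 24, 31 and 36 for exit from 2i/LIF, 15 and 23 for its steps, 23, 47 and 41 for exit from serum/LIF+2i, 40 and 14 for its steps, 36, 20, 25 and 24 between media, and 6, 12 and 20 for the interactions. Of the calls of named genes, 272 were kept and 2 lost under the block, 259 kept and 15 lost with DESeq2's size factors, 238 and 36 under library size alone and 202 and 72 with DESeq2's Wald test, and no direction reversed in any alternative run. In simulated data, 34.8% of changes of 0.25 log2 at 40 h in the serum arm were recovered. Those data held 200 changed genes drawn from all tested genes and no other change between groups, unlike the real comparison. The recovery for ribosomal protein genes was not simulated, and an uncalled gene is not shown to be unchanged.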
